A study of Mus musculus with 9 samples.

Results

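The therapeutic dose of an anti-C5 antibody, 1 μg per eye, was compared with a control injection in the normal mouse retina by gene expression microarray, 7 days after the injection into the vitreous. The comparison takes every array of the 2 groups, 3 at 1 μg and 3 of control, out of the 9 of the series, and all 41345 probe sets on them. The remaining 3 arrays, from eyes given 10 μg, entered only the estimate of the spread, and their values are set beside those at 1 μg for some genes. The question was whether the antibody at this dose disturbs a retina that has no disease.

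All mice were 6-week-old males without laser injury or any engineered allele, of the strain C57BL/6 by the labels and C57BL/6J by the methods of the study. The eyes of both groups received 1 μL, which carried 1 μg of antibody in the treated group. The antibody was chimeric, with a chicken-derived variable part on a murine IgG1 constant part, and binds the MG4 domain of the C5 β chain. Each array was hybridised with the RNA of a pool of 4 retinas. The labels describe the control injection as PBS and the methods of the study as an IgG1 isotype antibody, so these arrays are called control here, and an effect of the murine IgG1 constant part cannot be told apart from one of C5 binding if the labels are right. In whole retina, fewer cells of a type and less RNA per cell cannot be told apart either.

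C5 is the complement component from which the enzymes of the cascade cut C5a, a chemoattractant that acts through the receptors C5ar1 and C5ar2 on myeloid cells, and C5b, which starts the pore-forming terminal complex. In the retina, microglia and Müller glia respond to injury: Müller glia build up the intermediate filament protein Gfap under signals of the interleukin 6 family that run through Stat3, and microglia become active. Photoreceptors and retinal ganglion cells are the neurons whose loss impairs vision, and the transcripts of rods make up a large part of retinal RNA.

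The deposited values are log2 expression values made by RMA, so a difference of 1 is 2-fold. Rod markers were near the top of the range on all arrays: Gnat1, the rod transducin subunit, averaged 13.51 in control and 13.49 at 1 μg. Markers of other tissues varied between pools. The lens gene Cryaa was at 12.93, 13.20 and 8.56 in control pools 1 to 3 and at 8.02, 11.64 and 11.53 at 1 μg, and the skeletal muscle actin Acta1 at 9.32, 6.25 and 7.07 against 7.00, 6.54 and 6.90. Lens signal was highest in control pools 1 and 2 and lowest in control pool 3 and treated pool 1, and muscle signal was highest in control pool 1. Array medians lay between 5.89 and 6.04, the highest being that of the first pool at 1 μg. Correlations across probe sets were 0.988 to 0.991 between control arrays, 0.985 to 0.989 between arrays at 1 μg and 0.980 to 0.990 between the groups.

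No probe set passed the adjusted test at 1 μg against control (0 of 41345, 0%, adjusted p below 0.05 by limma). At an unadjusted p below 0.05 by limma there were 3072 (7.43%), of which 2037 (4.93%) were higher and 1035 (2.5%) lower. The higher ones thus made up 66.3% of these, but 50.7% when the arrays were scaled by cyclic loess. By the thresholds of the study, over 2-fold with an unadjusted p below 0.05, 236 probe sets (0.571%) were higher and 51 (0.123%) lower in this fit, 287 in all (0.694%). The study counted genes and names no test for its arrays, so these counts of probe sets are not its own result. In 3993 (9.66%) all 3 treated pools lay above every control pool, and in 1636 (3.96%) below. The median difference over probe sets was 0.02, with a median standard error of 0.118. The 95% confidence interval excluded a 2-fold difference in either direction for 92.7% of probe sets, and its median half-width was 0.271.

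Most signals past the thresholds did not belong to a named gene of its own. Of the 287 probe sets, 138 name several genes at once, 116 are unnamed here and 33 name exactly 1 gene. As shares of each class these are 7.58% of 1820, 0.725% of 16004 and 0.14% of 23521 probe sets. All 138 several-gene probe sets were higher. The 1-gene probe sets hold 16 genes that were higher and 8 that were lower.

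**Figure D1:**
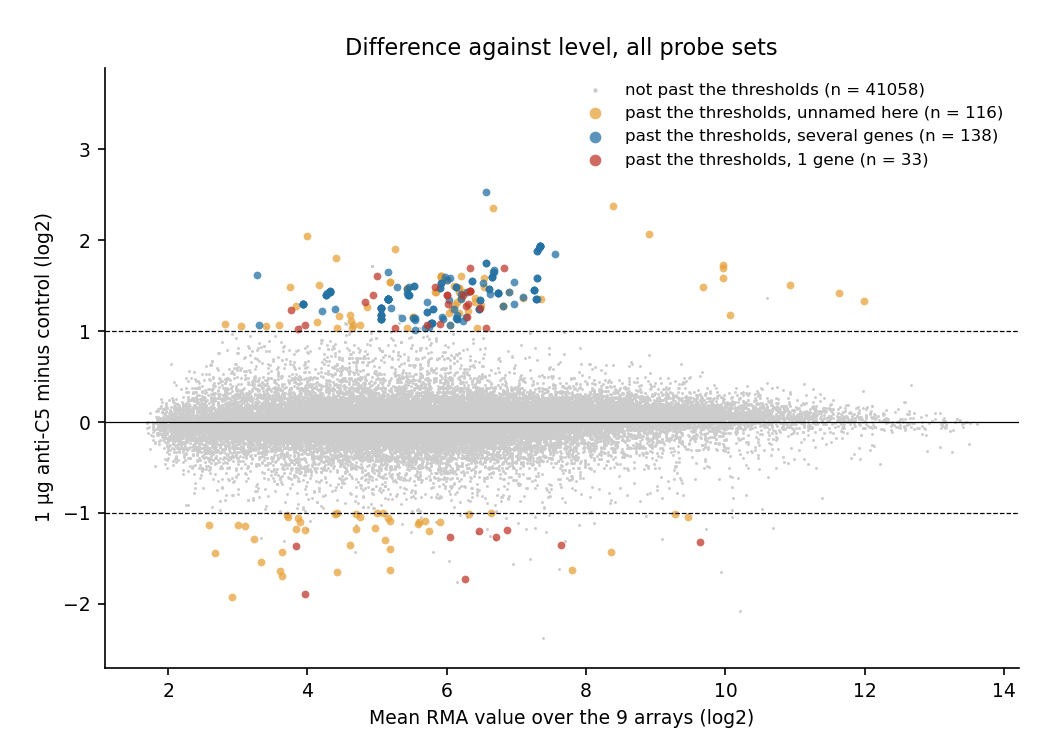
Each point is 1 probe set, with its mean RMA value over the 9 arrays (log2) on the x axis and the difference between 1 μg and control (log2) on the y axis. Dashed lines mark 2-fold. Coloured points are the 287 probe sets past 2-fold and an unadjusted p below 0.05, and the blue several-gene points (n = 138) all lie above 0.

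Among probe sets of exactly 1 gene, the smallest p belonged to Mir329, a microRNA precursor of the imprinted cluster between Dlk1 and Dio3. Its values were 7.71, 8.10 and 7.98 in the control pools and 6.96, 7.14 and 6.89 at 1 μg, a difference of -0.93 (standard error 0.13, adjusted p = 0.464 by limma). 1700071K01Rik, a transcript whose function is not known, was at 8.55, 8.73 and 8.72 against 8.11, 7.81 and 7.71, a difference of -0.79 (standard error 0.11, adjusted p = 0.464 by limma). In both, the groups do not overlap, which is so for 3.96% of all probe sets in this direction. At 10 μg the same difference from control was -0.67 for Mir329 and -1.43 for 1700071K01Rik, against the same control pools.

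Coro6, an actin-binding coronin, was at 7.33, 7.22 and 7.25 in control and at 6.89, 6.79 and 6.78 at 1 μg, a difference of -0.44. Eif4a2, an RNA helicase of translation initiation, had a difference of -0.98, from 7.33, 7.18 and 7.12 to 6.42, 5.97 and 6.29. This was not shared by its other probe sets: they differed by 0.24 and, in the brightest of the 3, by 0.05. Syne1, which encodes nesprin-1 of the nuclear envelope, is measured by 59 probe sets of its own. The lowest p among them came with values of 9.13, 9.15 and 9.21 against 8.87, 8.81 and 8.84 (difference -0.32). Of the 59, 49 had a negative difference, 2 of them with an unadjusted p below 0.05 by limma, and the median was -0.08.

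The remaining lower genes with the smallest p were Mir466b-3 (-0.80) and Mir466b-2 (-0.70), precursors from the Sfmbt2 gene, Gm11190 (-0.60), H2al1j (-0.47), a histone H2A variant, and Wfikkn1 (-0.32), a secreted protein that binds growth factors of the GDF8 kind. At the probe set with the smallest p, all 3 treated pools lay below every control pool for all 10 lower genes, as in 3.96% of all probe sets. Choosing genes by small p favours such separation. Eif4a2, Mir466b-2 and Syne1 have other probe sets in which this was not so. The adjusted p-values of the 10 genes by limma lay between 0.464 and 0.606. These genes are spread over chromosomes and gene classes, with 3 microRNA precursors among them.

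On the higher side the differences were mostly smaller. 2900092D14Rik, a long noncoding transcript, was at 5.67, 5.71 and 5.76 in control and at 6.16, 6.12 and 6.33 at 1 μg (difference 0.49, standard error 0.08, adjusted p = 0.464 by limma). Slc14a1, a urea transporter, was at 7.33, 7.47 and 7.53 against 7.86, 7.88 and 7.99 (difference 0.47). Akap12, a scaffold for protein kinase A, was at 7.45, 7.40 and 7.61 against 7.96, 7.82 and 7.87 (difference 0.39). Sprn, which encodes the prion-like protein Shadoo, differed by 0.33, and Arhgef3, a guanine nucleotide exchange factor, by 0.27.

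The same part of the ranking held 2010320M18Rik (0.34), the zinc finger gene Zfp729b (0.38), AI429214 (0.45), the olfactory receptor Olfr446 (0.47, with 0.22 at its other probe set) and the pheromone receptor Vmn1r223 (0.81). At the probe set with the smallest p, the groups were separate in all 10 genes, as in 9.66% of all probe sets in this direction. The adjusted p-values of these genes by limma lay between 0.464 and 0.606. The smallest p of all 41345 belonged to a probe set that is unnamed here, chosen after its values were seen: 6.24, 6.27 and 6.42 in control and 5.37, 5.11 and 5.17 at 1 μg (difference -1.09, standard error 0.10, adjusted p = 0.171 by limma). It passed the adjusted test when arrays were weighted by their quality (adjusted p = 0.031 by limma).

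**Figure D2:**
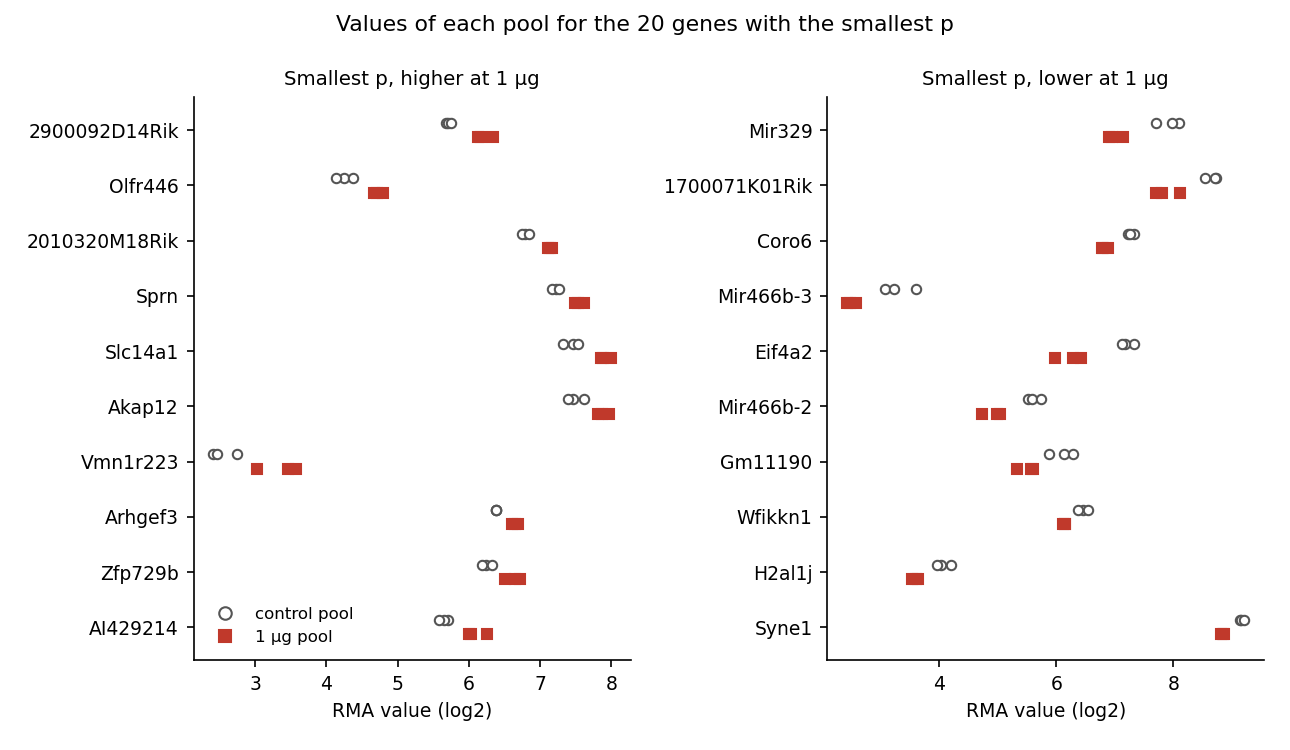
RMA values (log2, x axis) of each pool for the 10 genes with the smallest p on either side (y axis), with open circles for the 3 control pools and squares for the 3 pools at 1 μg. At the probe set drawn, the groups are separate in all 20 genes, and the differences run from -0.98 (Eif4a2) to 0.81 (Vmn1r223).

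The 16 named genes that were past the thresholds upward were mostly members of multicopy families. They included 6 type 1 vomeronasal receptors, which detect pheromones in the nose, the Y-linked genes Srsy and Gm20815, and the X-linked Astx5 and Btbd35f1. Astx5 was at 4.66, 5.00 and 5.28 in control and 6.76, 5.97 and 7.32 at 1 μg, a difference of 1.70 (adjusted p = 0.637 by limma). Btbd35f1 was at 4.97, 5.25 and 5.68 against 6.45, 6.15 and 7.04 (difference 1.25). In both genes pool 2 had the lowest of the treated values.

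Srsy was at 5.10, 5.16 and 5.31 against 6.41, 6.12 and 6.87 (difference 1.28), and 6 of its 7 probe sets were past the thresholds. Vmn1r94 was at 5.14, 5.64 and 5.45 against 6.98, 6.58 and 7.75 (difference 1.69). The other vomeronasal receptors were Vmn1r157 (1.40), Vmn1r127 (1.03), Vmn1r103 (1.40), Vmn1r91 (1.49) and Vmn1r129 (1.61). The genes outside these families were the olfactory receptors Olfr1501 (1.02) and Olfr1307 (1.07), the transporter gene Slc22a29 (1.23), Gm3141 (1.32), Pla2g10os (1.04) and the microRNA precursor Mir101c (1.07). Of the 24 higher 1-gene probe sets, 12 stayed past the thresholds without treated pool 3, and at least 19 without any other pool of control or 1 μg.

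The several-gene probe sets of the same families had differences of like size. Of 67 Y-linked multicopy probe sets, which hold 32 distinct sets of values, 43 were past the thresholds upward, against 7.58% of all several-gene probe sets. Their median signal was 2.26-fold that of control. Set against the control mean, their median lay at -0.10, -0.17 and 0.35 in the control pools and at 1.72, 0.06 and 1.85 at 1 μg, so the second treated pool was at the control level. Without that pool 65 were past the thresholds, and without treated pool 1 or 3 there were 23 and 19.

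Of 44 several-gene probe sets of type 1 vomeronasal receptors (30 distinct sets of values), 37 were past the thresholds upward, with a median of 2.58-fold. The medians per pool were -0.09, -0.02 and 0.06 in control and 1.49, 0.58 and 1.84 at 1 μg. Here the second treated pool was also the lowest, but above every control pool. Without treated pool 3 there were 23 past the thresholds, and without treated pool 1 there were 27. The 180 probe sets that name 1 such receptor alone had a median difference of 0.02, and 6 were past the thresholds, against 0.14% of all 1-gene probe sets. The 1108 probe sets of single olfactory receptors had a median of 0.03, with 2 past them.

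A probe set shared by Speer4e and another gene had the largest difference among named probe sets past the thresholds. Its values were 3.48, 4.80 and 5.35 in control and 6.92, 6.50 and 7.79 at 1 μg, a difference of 2.53 (standard error 0.53, adjusted p = 0.606 by limma). At 10 μg, against the same controls, the median difference was 1.90 for the Y-linked and 1.98 for the vomeronasal several-gene probe sets. Signals of such probe sets cannot be assigned to any of the genes they name. By chromosome, 91 of the 155 named Y probe sets were past the thresholds upward, as were 43 of 2229 on chromosome 7, where vomeronasal receptor genes lie, and 17 of 1082 on the X chromosome, against 0.571% of all probe sets. All mice were male.

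Among the unnamed probe sets past the thresholds upward were 8 bright ones, with a mean above 9 and differences of 1.19 to 1.73. In none of these 8 did all 3 treated pools lie above every control pool.

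**Figure D3:**
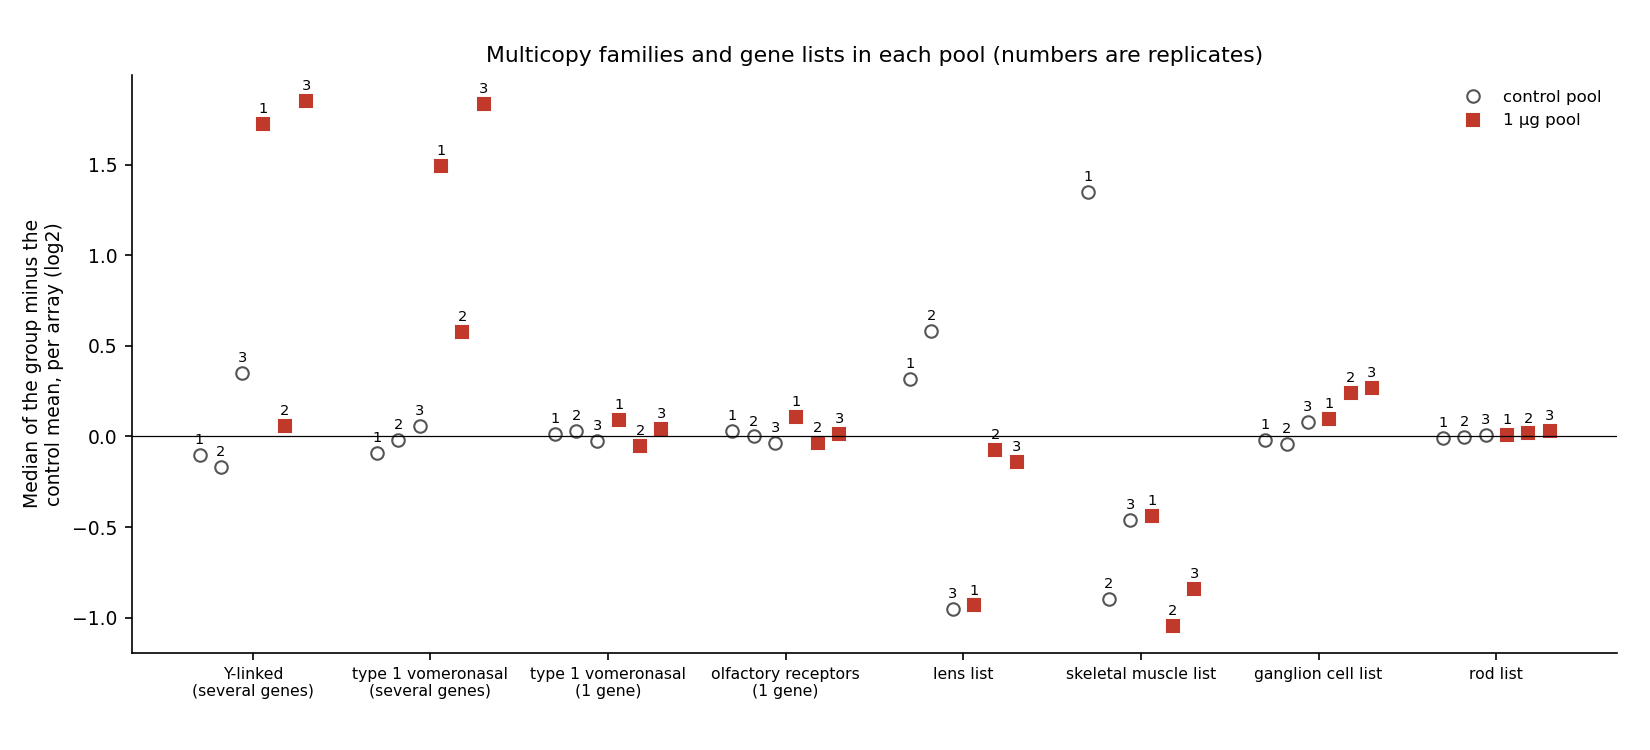
For each multicopy family or gene list (x axis), the median over its probe sets or genes in each pool, as the log2 difference from the control mean (y axis). Circles are control pools, squares pools at 1 μg, and the digit above each point is the replicate. The second pool at 1 μg sits at 0.06 for the Y-linked probe sets, while pools 1 and 3 sit at 1.72 and 1.85. The first control pool stands alone in the muscle list at 1.35.

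The 8 named genes past the thresholds downward were Mir466g, Rdh13, Fbln1, Nid1, Ogn, R3hdml, Optc and Igfbp7. Several encode extracellular matrix proteins: nidogen-1 of basement membranes, fibulin-1, osteoglycin and opticin, a proteoglycan of the vitreous. Igfbp7, a secreted binding protein of growth factors, was at 10.95, 11.41 and 9.03 in control and at 9.10, 9.09 and 9.23 at 1 μg. R3hdml was at 8.08, 8.14 and 6.14 against 6.15, 6.21 and 6.23. Nid1 was at 7.70, 8.25 and 5.75 against 5.65, 5.27 and 5.58. For these genes control pools 1 and 2 were high and control pool 3 lay near the treated pools.

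In the lens list control pools 1 and 2 were also the highest, but treated pools 2 and 3 lay above control pool 3. The 24 measured genes of this list had a median difference of -0.35, none with an unadjusted p below 0.05 by limma. Their medians per pool were 0.32, 0.58 and -0.95 in control and -0.93, -0.07 and -0.14 at 1 μg. The lens channel gene Mip was at 8.68, 9.54 and 6.45 against 6.24, 6.82 and 7.07. The part of such tissue in the matrix genes was not tested. Without control pool 3, R3hdml passed the adjusted test (difference -1.91, adjusted p = 0.00098 by limma), and 10 lens genes had an unadjusted p below 0.05 by limma. Of all 41345 probe sets, 1945 were higher and 1161 lower at that level without that pool. Without control pool 1 or 2, 3 and 2 of the 9 lower 1-gene probe sets stayed past the thresholds, and without treated pool 1, 2 or 3 there were 5, 3 and 5.

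Fbln1 (7.36, 8.01 and 6.89 against 6.84, 5.87 and 6.00), Ogn (6.75, 7.49 and 5.59 against 5.30, 5.21 and 5.54) and Optc (8.21, 8.96 and 7.69 against 7.60, 6.65 and 6.55) had all 3 treated pools below every control pool. This was so for 3.96% of all probe sets, and choosing genes past the thresholds favours it. Mir466g, from the Sfmbt2 gene, was at 5.03, 4.57 and 4.75 against 3.85, 2.84 and 3.59, a difference of -1.36 (adjusted p = 0.637 by limma). Rdh13, a mitochondrial retinol dehydrogenase, had a dim probe set with a difference of -1.89 in which the groups overlap, and another at 0.15. The 19 skeletal muscle genes had a median of -0.73, and 1 had an unadjusted p below 0.05 by limma, the myosin light chain gene Mylpf (-0.87). Without control pool 1 the median was -0.05 and none was at that level, and without control pool 2 the median was -1.21, with 9 at that level. Of all genes 1.36% were lower at that level in the main fit. Without control pool 2, 1438 of all 41345 probe sets were higher and 875 lower.

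Retinal cell types and pathways were described by 28 gene lists, each gene being taken by its brightest probe set of its own, and of the list entries 461 had such a probe set, 19 had only probe sets shared with other genes and were left out, and 23 were not analysed here. The 393 genes of the lists other than lens, muscle, anterior eye and blood had a median difference of 0.05, against 0.04 over all 22180 genes, of which 62.9% had a positive difference, and for 382 of them the 95% confidence interval excluded a 2-fold difference. At an unadjusted p below 0.05 by limma, 35 (8.91%) were higher and 6 (1.53%) lower, against 5.09% and 1.36% of all genes. Many of these lists were brighter than all genes, whose median level was 6.30. With dim probe sets (below the median level) left out, 1813 of 20673 were higher and 498 lower at that level, with a median difference of 0.045. The shares over all genes are thus not matched for brightness, here or for the single lists below. No listed gene passed the adjusted test. Of the 21 lists with at least 1 gene at an unadjusted p below 0.05, the count moved by over 1.5 times in 19 when 1 pool was left out, and fell to 0 in 10.

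**Figure D4:**
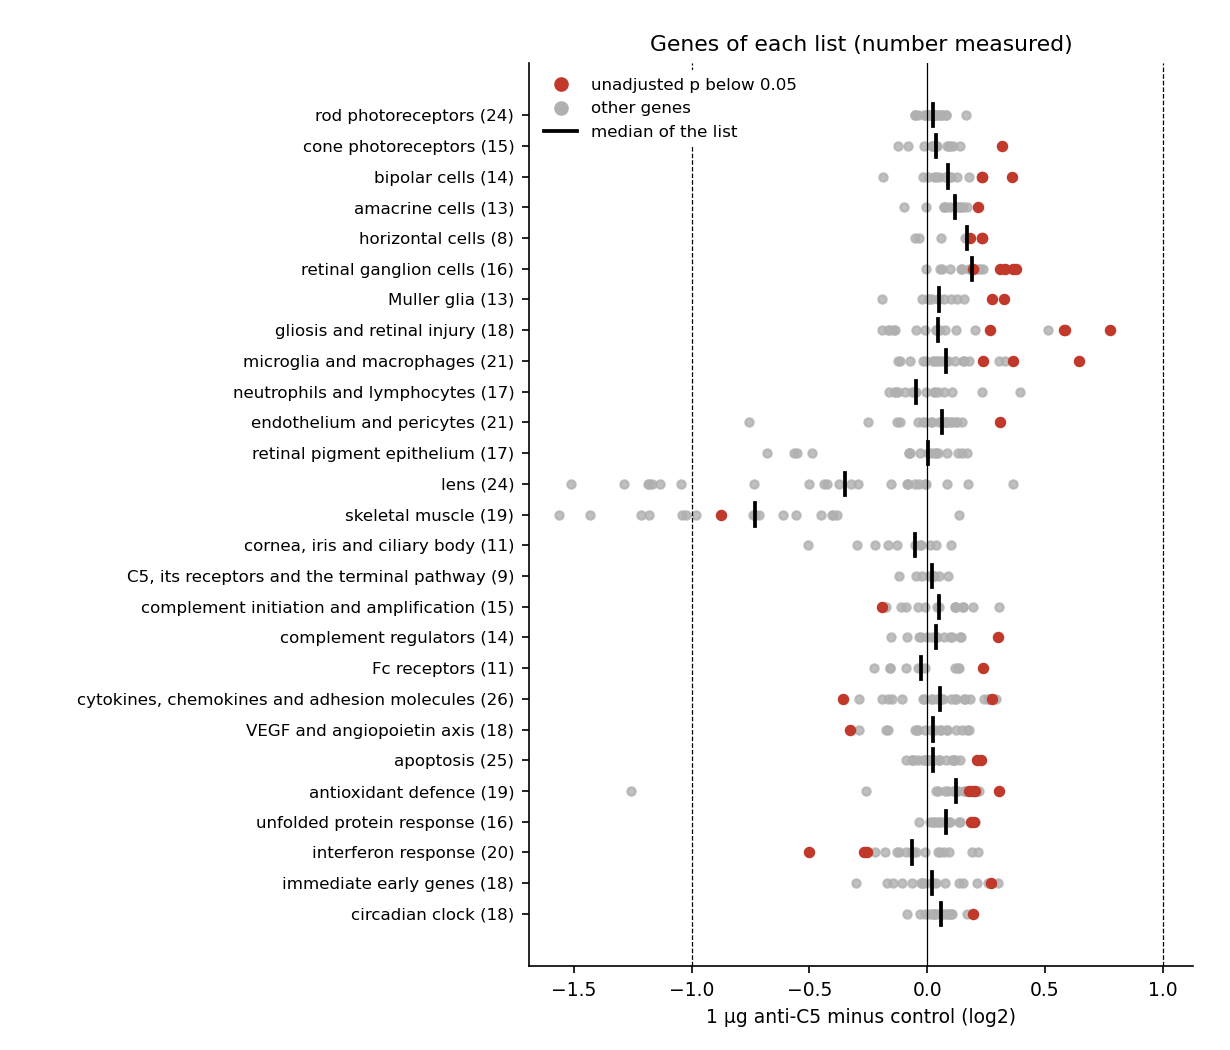
Each point is 1 gene of a list (y axis, with the number measured) at its difference between 1 μg and control (log2, x axis), in red where the unadjusted p was below 0.05. Black bars are medians and dashed lines mark 2-fold, and the blood list, with 1 measured gene, is not drawn. Lists of retinal cells sit near 0, Gfap (0.78) and Ly86 (0.64) reach furthest to the right, and the lens and muscle lists spread to the left.

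Rod genes lay close to control. Over 24 of them the differences ran from -0.05 to 0.17, with a median of 0.02, and the interval excluded 2-fold for all 24. Among them were Gnat1 (-0.01), the disc rim proteins Prph2 (0.08) and Rom1 (0.17), and Rp1 (0.08), an axonemal protein. In 15 cone genes the median was 0.04: cone arrestin Arr3 was at -0.12, the short-wave opsin Opn1sw at 0.04, and the potassium channel subunit Kcne2 at 0.32, the only cone gene with an unadjusted p below 0.05 by limma.

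Of 16 retinal ganglion cell genes, 15 had a positive difference, as had 62.9% of all genes, and the median was 0.19 against 0.04 over all genes. Pou4f1, a transcription factor of these cells, was at 7.58, 7.42 and 7.71 in control and at 7.85, 7.86 and 7.99 at 1 μg, a difference of 0.33 (standard error 0.09, adjusted p = 0.637 by limma). Sncg, γ-synuclein, was at 9.32, 9.47 and 9.60 against 9.59, 9.99 and 9.95, so that the groups overlap by 1 pool of each (difference 0.38). Also with an unadjusted p below 0.05 were the vesicular glutamate transporter gene Slc17a6 (0.36), Nrn1 (0.31), which encodes neuritin, and the neurofilament gene Nefh (0.19). Rbpms, an RNA-binding protein used to mark ganglion cells, was at -0.01.

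These 5 of 16 became 7 and 8 without control pool 3 or treated pool 1, 2 after each array was centred on its median or after cyclic loess, and 1 without control pool 1 or without treated pool 2 or 3. In 8 horizontal cell genes the median was 0.17, with Lhx1 (0.23), Onecut1 (0.23) and Calb1 (0.18) at an unadjusted p below 0.05 by limma. These 3 were 1 without treated pool 3 or any 1 of the control pools, and 2 without treated pool 1 or 2. Of 14 bipolar cell genes 3 were so, Scgn (0.36), Bhlhe23 (0.23) and Car8 (0.23), and of 13 amacrine cell genes 1, the vesicular GABA transporter gene Slc32a1 (0.22). For comparison with these lists, 5.09% of all genes were higher at this level, a share not matched for brightness.

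The gliosis and retinal injury list held the highest positive difference of all 28 lists, that of Gfap. Of its 18 genes 4 were higher at an unadjusted p below 0.05 by limma, against 5.09% of all genes. Gfap was at 6.55, 6.23 and 6.34 in control and at 7.40, 6.80 and 7.25 at 1 μg, a difference of 0.78 (standard error 0.25, adjusted p = 0.641 by limma). Osmr, the receptor of oncostatin M, was at 7.20, 7.02 and 7.14 against 7.89, 7.43 and 7.79 (difference 0.58, standard error 0.14). Cebpd, a transcription factor of the acute phase response, was at 5.41, 5.16 and 5.22 against 6.09, 5.53 and 5.91 (difference 0.58). In all of these the treated pools lay above every control pool, as in 12.3% of all genes, with pool 2 the lowest.

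Stat3, the transcription factor through which such receptors signal, was at 8.93, 8.83 and 8.99 against 9.32, 9.05 and 9.17 (difference 0.26). The rest of the list did not follow: its median was 0.05, and vimentin (Vim) was at -0.19, Socs3, a feedback inhibitor of this pathway, at -0.14 and Timp1 at -0.14. Lcn2, which encodes lipocalin-2, was at 0.51 without reaching an unadjusted p below 0.05. Without treated pool 1 the number at an unadjusted p below 0.05 upward was 2, and in the other leave-out settings it was 3 to 5. At 10 μg Gfap was 0.74 above the same controls, Osmr 0.43, Cebpd 0.48 and Stat3 0.15.

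STAT factors bind the motif TTCNNNGAA, which reads alike on both strands. It was searched for on both strands in the window around the start of each gene in the RefSeq table (GRCm38.p6). The site found in the Gfap window is shown with the motif in capitals.
Gfap, chr11:102897184-102897213, minus strand: aatgggggtgcTTCCAGGAAgtcaggggca
The motif begins 2 bases before the annotated start. No window was used for Cebpd. The windows of Stat3 and Osmr hold 0 matches, and 8.3% of 32851 windows hold the motif. A match is a description of the sequence and not a measured binding site.

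Müller glia genes of the resting state had a median of 0.05 over 13 genes. The glutamate transporter gene Slc1a3 had a difference of 0.33 and the potassium channel gene Kcnj10 of 0.28. In both, all 3 treated pools lay above every control pool, as in 12.3% of all genes. Rlbp1, a retinoid carrier, was at 0.00 and glutamine synthetase (Glul) at -0.02. In 21 genes of microglia and macrophages the median was 0.08, and 3 were higher at an unadjusted p below 0.05 by limma, against 5.09% of all genes. Ly86, a partner of a toll-like receptor family member, was at 7.07, 7.16 and 7.15 against 7.73, 7.52 and 8.07 (difference 0.64, standard error 0.21, adjusted p = 0.641 by limma).

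Csf1r, the receptor on which microglia depend, was at 5.98, 6.08 and 5.97 against 6.32, 6.27 and 6.53 (difference 0.36). Fcer1g, the signalling chain of Fc receptors, was at 6.48, 6.61 and 6.30 against 6.73, 6.61 and 6.75 (difference 0.24). The macrophage marker Adgre1, which encodes F4/80, was at -0.11. These 3 of 21 were 0 without treated pool 3, 1 without control pool 3 and 4 without treated pool 2. Over 17 genes of neutrophils and lymphocytes the median was -0.05, with 0 at that level, and over 11 Fc receptor genes -0.03, with Fcer1g alone.

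Transcripts of C5 and its receptors had differences near 0. Hc, which encodes C5, was at 4.43, 4.47 and 4.47 in control and at 4.57, 4.47 and 4.47 at 1 μg, a dim signal in both groups. C5ar1 was at 4.86, 4.96 and 5.04 against 5.03, 4.96 and 4.96, and C5ar2 at 6.19, 6.12 and 6.23 against 6.17, 6.29 and 6.12. The differences were 0.05, 0.03 and 0.01. For all 9 genes of C5, its receptors and the terminal pathway the interval for the signal excluded 2-fold. The median level of this list was 5.00, against 5.92 over all probe sets. For dim signals such an interval cannot exclude a change in the transcript, since little of the signal may come from it.

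Upstream, 15 genes of complement initiation and amplification had a median of 0.05. C1qb, a chain of the recognition protein C1q, was at 0.31 and Mbl1, a mannose-binding lectin, at -0.19 with an unadjusted p below 0.05 by limma. Among 14 complement regulators the membrane inhibitor Cd59a was at 9.36, 9.32 and 9.56 against 9.89, 9.56 and 9.67 (difference 0.30), and the median was 0.04. C3ar1, the receptor of C3a, was at 0.12.

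Of 26 cytokines, chemokines and adhesion molecules, Cxcl12 was at 0.28 and Tnf at -0.36 with an unadjusted p below 0.05 by limma. Ccl2, which encodes MCP-1, was at 5.77, 5.82 and 5.80 against 5.88, 5.76 and 5.69 (difference -0.02), and Icam1 at 0.24. Vegfa was at 8.82, 8.85 and 8.79 against 8.81, 8.72 and 8.80 (difference -0.05). Of the 18 genes of the VEGF and angiopoietin axis, Vegfd alone had an unadjusted p below 0.05 (-0.33). With cyclic loess, with median centring or without treated pool 1, 3 were lower at that level. None was without control pool 1 or 3 or treated pool 2 or 3. Over all probe sets the lower count of 1035 became 1353, 1144 and 2253 in the first 3 of these settings. Without control pool 1 or 3 it was 749 and 1161, and without treated pool 2 or 3, 764 and 759. In the endothelium and pericyte list the pericyte gene Rgs5 (0.31), alone of 21 genes, had an unadjusted p below 0.05 by limma. Of all genes 5.09% were higher and 1.36% lower at that level.

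Differences in the stress lists were small, apart from Gpx3. In 19 antioxidant genes the median was 0.12, and 17 had a positive difference, against 62.9% of all genes. Gsr, glutathione reductase, was at 7.01, 6.86 and 6.93 against 7.15, 7.23 and 7.32 (difference 0.30, standard error 0.08), followed by Nfe2l2 (0.20), the transcription factor that controls many of these genes, Prdx2 (0.19) and Txn1 (0.18). Gpx3 was at -1.25 with overlapping groups. These 4 of 19 stand against 5.09% of all genes. They were 1 without control pool 1 or after median centring, and without treated pool 1 there were 6 higher and 1 lower. In 16 genes of the unfolded protein response, 15 were positive, against 62.9% of all genes, with the chaperone Hspa5 at 0.20 and the sensor Atf6 at 0.19 at an unadjusted p below 0.05 by limma. With cyclic loess none of the 16 was at that level, and the median of 0.08 became 0.02.

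In 25 apoptosis genes the median was 0.03, with Bak1 at 0.23 and Casp6 at 0.21. Interferon response genes were the list of retinal and immune genes with the most members lower, 3 of 20. Of all genes 1.36% were lower at an unadjusted p below 0.05 by limma. Usp18, which removes Isg15 from proteins, was at 6.64, 6.44 and 6.37 in control and 6.22, 6.04 and 5.67 at 1 μg (difference -0.50). Isg15 itself was at -0.26 and Ifi27 at -0.27, the median over 20 genes was -0.06, and without control pool 1 none of the 20 had an unadjusted p below 0.05 by limma, without control pool 2 it was 1, and without any other pool 2. At 10 μg Usp18 was 0.01 above control.

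Nr4a2 (0.27) was the only immediate early gene of 18 with an unadjusted p below 0.05, and Ciart (0.19) the only circadian gene of 18. In 17 genes of the retinal pigment epithelium there was none, and Rpe65 was at 0.15.

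Among microRNA precursors, lower values were more frequent than higher ones. Of 496 precursor probe sets with distinct values, 33 (6.65%) were lower at an unadjusted p below 0.05 by limma and 5 (1.01%) higher, against 2.5% and 4.93% of all probe sets. The 31 within the Sfmbt2 gene had a median of -0.29, the 47 between Dlk1 and Dio3 of -0.16 and the 418 elsewhere of -0.06. The long transcripts Rian and Meg3 of chromosome 12 were at 0.00 and -0.07, and Sfmbt2 was at -0.05. Which transcript hosts each precursor was not tested. The probe sets lie on precursor genes, and mature microRNAs were not measured as such.

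The lower group medians were those of treated pools 2 and 3, although single precursors such as Mir187 were lowest in treated pool 1. For the Sfmbt2 group the medians per pool, set against the control mean, were -0.03, -0.02 and 0.04 in control and -0.05, -0.40 and -0.36 at 1 μg. For the group between Dlk1 and Dio3 they were -0.07, 0.01 and 0.03 against 0.05, -0.25 and -0.25. Treated pool 1 was the array with the highest median of all probe sets, 6.04. Without it 81 of the 496 (16.3%) were lower at an unadjusted p below 0.05 by limma, and without treated pool 3 there were 19 (3.83%). The count over all 41345 probe sets moved the same way. It was 1035 in the main fit, 2253 without treated pool 1 and 759 without treated pool 3.

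**Figure D5:**
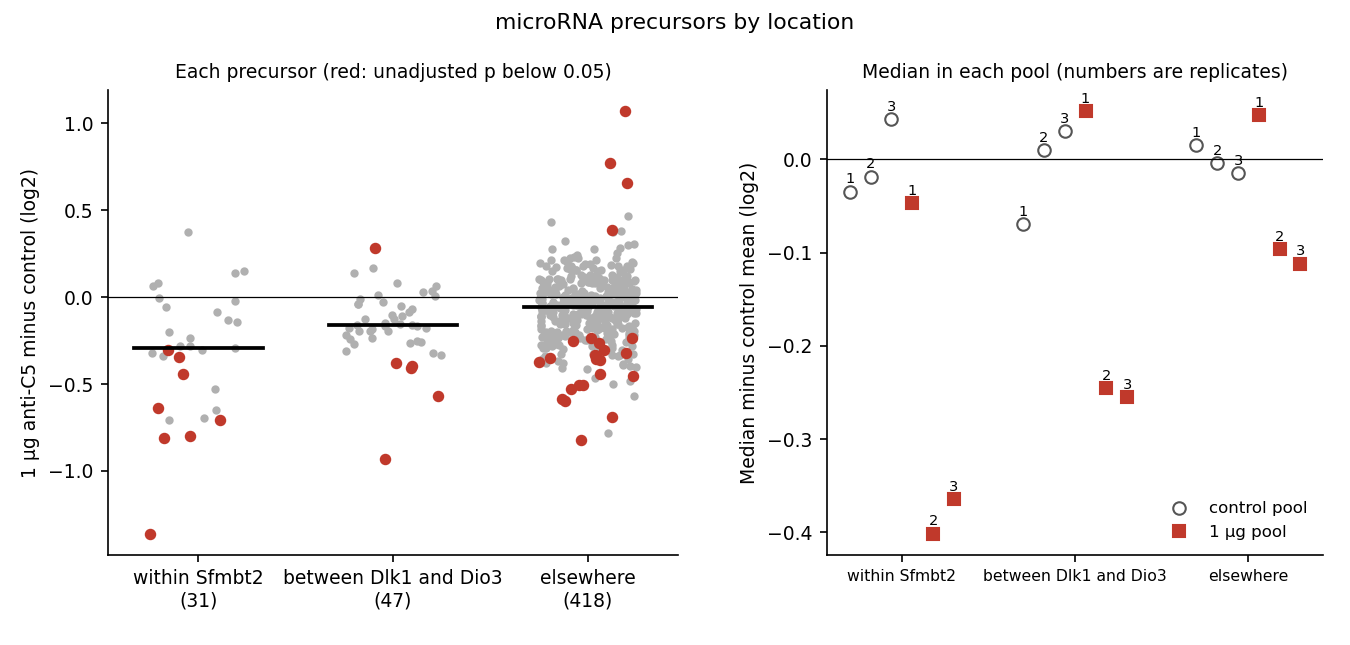
Left, the difference between 1 μg and control (log2, y axis) of each microRNA precursor probe set with distinct values, grouped by location (31, 47 and 418), with black bars for medians at -0.29, -0.16 and -0.06. Right, the median of each group in each pool as the log2 difference from the control mean, where circles are control pools and squares pools at 1 μg. Treated pools 2 and 3 lie below every control pool in all groups, and treated pool 1 does so only within Sfmbt2, at -0.05.

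Of the 37 precursor genes with an unadjusted p below 0.05 by limma, 25 matched a mature sequence in the RefSeq table (GRCm38.p6). The products of the precursor with the smallest p, of 2 others from its cluster, of the let-7 genes in this set, of a precursor abundant in neurons and of the only one past 2-fold upward are given with the seed, bases 2 to 8, in capitals. Apart from Mir329 and Mir101c they were chosen after their values were seen.
miR-329-5p, chr12:109713503-109713524, plus strand: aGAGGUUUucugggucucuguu
miR-329-3p, chr12:109713541-109713562, plus strand: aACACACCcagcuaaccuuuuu
miR-300-3p, chr12:109724363-109724384, plus strand: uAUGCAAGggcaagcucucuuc
miR-381-3p, chr12:109726870-109726891, plus strand: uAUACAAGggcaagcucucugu
let-7d-5p, chr13:48536078-48536099, minus strand: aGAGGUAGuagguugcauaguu
let-7c-5p, chr15:85706616-85706637, plus strand: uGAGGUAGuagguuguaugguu
miR-181a-5p, chr1:137966468-137966490, plus strand: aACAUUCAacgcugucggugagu
miR-101c, chr9:3038680-3038698, minus strand: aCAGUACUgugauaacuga

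The seed GAGGUAG of let-7c-5p and let-7d-5p was the only one shared by products of different precursors among these 25, and 11 mature microRNAs of the table carry it. Their precursors lie on different chromosomes. Mirlet7d was at 5.43, 5.44 and 4.79 in control and at 4.75, 4.38 and 4.47 at 1 μg (difference -0.69, adjusted p = 0.637 by limma). Mirlet7c-2 was at 5.05, 4.77 and 4.73 against 3.93, 4.51 and 4.51 (difference -0.53). In both, every treated pool lay below every control pool. This was so for 3.96% of all probe sets and for 31 of the 418 precursor probe sets outside both clusters. The 2 were taken from precursors with an unadjusted p below 0.05 by limma, which favours such separation.

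From the cluster on chromosome 12, Mir300 was at 5.31, 5.54 and 5.49 against 5.14, 4.69 and 4.81 (difference -0.57) and Mir381 at 4.46, 4.23 and 4.60 against 3.87, 4.06 and 4.14 (difference -0.41). Mir154 of the same cluster had a difference of the other sign, at 3.93, 3.89 and 3.58 against 4.17, 3.98 and 4.11 (difference 0.28). Mir181a-1, whose product is abundant in retinal neurons, was at 6.04, 6.27 and 6.14 against 5.81, 5.70 and 5.43 (difference -0.51), and at 10 μg it was -1.20 from the same controls.

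Mir187 had the largest difference outside both clusters among the lower ones, at 7.27, 7.00 and 7.03 against 5.58, 6.77 and 6.49 (difference -0.82). Mir124a-2, a precursor of the neuronal microRNA miR-124, was at 6.40, 6.82 and 6.59 against 6.01, 6.09 and 6.35 (difference -0.45). Mir101c was at 4.90, 4.59 and 4.63 against 5.61, 5.46 and 6.26 (difference 1.07, adjusted p = 0.637 by limma).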

How the data were processed

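Total RNA from retinas was measured on mouse gene expression arrays of Affymetrix, 3 for each group as the sample labels give them. The log2 values that the authors deposited were computed with RMA in Affymetrix Expression Console 1.1 and were used without further scaling. An array has no read depth, so precision rests on the number of arrays. The study names the Mouse Gene 1.0 ST array, whereas the probe set identifiers match a later version. Nothing states that pools came from separate experiments, so p-values measure the spread between pools.

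Groups were compared with limma (3.58.1, R 4.3.3) in a fit of all 9 arrays that share the estimate of the spread. P-values are two-sided and were adjusted by Benjamini-Hochberg over all 41345 probe sets. The platform annotation names 1 gene for 23521 probe sets, several for 1820 and none here for 16004, and RefSeq positions (GRCm38.p6) were used to group neighbouring genes. Figures were drawn with matplotlib 3.10.9. Tested on simulated data for this comparison, the fit recovered 69% of 100 probe sets changed 2-fold and 94% of 100 changed 4-fold among 41345, with 6 unchanged ones called. The simulated noise was drawn independently for each probe set, so shifts that many probe sets of a pool share were not modelled. These rates hold for that setting and do not give the power of the real comparison.

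Genes named are the 10 with the smallest p in each direction, those past the thresholds, the leading genes of each list and fixed complement, inflammatory and retinal markers. Lcn2, Vim, Socs3, Timp1, Gpx3, Nrn1, the Speer4e probe set, Rian, Meg3, Sfmbt2 and most microRNA precursors fall outside this rule and were picked with their values in view. The comparison, lists and tests were chosen with earlier results of these data known. In 32.1% of probe sets at least 2 of the 6 arrays hold exactly the same value, as for Hc. Alternatives were other fits and scalings, subsets of probe sets, and each array left out.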

Additional observations from a re-analysis of the deposited data

How the results depend on the processing

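With all probe sets and 2-fold as the bound, 236 probe sets were higher and 51 lower, 1035 were lower at an unadjusted p below 0.05, and none passed the adjusted test. With array quality weights 1 passed the adjusted test, 77 were lower past the thresholds and 2211 were lower at an unadjusted p. An ordinary equal-variance test on the 6 arrays gave 141 higher and 29 lower. Without dim probe sets there were 118 higher, 13 lower and 498 lower at an unadjusted p. Named probe sets alone gave 10 lower and 466 lower at an unadjusted p, and 1-gene probe sets alone 24, 11 and 442, since fewer were tested. A bound of 1.5-fold gave 433 higher and 255 lower. Deviations of control and treated pools with the same replicate number correlated at -0.018 to 0.021, and those with different numbers at -0.093 to 0.063. Such values over all probe sets cannot show whether pools of 1 number were handled together, and the labels do not say. With a replicate block the counts were 186 higher and 50 lower past the thresholds, 1890 and 1165 at an unadjusted p, and 0 past the adjusted test.

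Leaving out 1 array gave 0 to 1 past the adjusted test, the 1 being R3hdml without control pool 3. It gave 119 (without treated pool 3) to 357 (without treated pool 2) higher past the thresholds, and 44 (without treated pool 2) to 125 (without treated pool 1) lower. At an unadjusted p there were 1247 (without treated pool 3) to 2132 higher and 749 (without control pool 1) to 2253 (without treated pool 1) lower. The cause of these shifts was not tested.

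Some differences near 0, and those of Cryaa and Acta1, turned in sign. With cyclic loess C5ar2 was at -0.0023, Opn1sw at -0.0065 and Rlbp1 at -0.051. Over the arrays left out, C5ar1 ran from -0.017 to 0.072, C5ar2 from -0.040 to 0.047, Ccl2 from -0.070 to 0.024, Adgre1 from -0.23 to 0.016, Gnat1 from -0.042 to 0.0079, Rlbp1 from -0.076 to 0.095, Glul from -0.046 to 0.010, Rbpms from -0.029 to 0.025, Rpe65 from -0.042 to 0.34, Cryaa from -2.67 to 0.020 and Acta1 from -1.38 to 0.15.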

Other observations

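Small nucleolar and Cajal body RNAs, which guide the chemical modification of ribosomal and spliceosomal RNA, lay on the higher side. Of 81 probe sets that name 1 such RNA, 15 were higher and 2 lower at an unadjusted p below 0.05 by limma, against 4.93% and 2.5% of all probe sets, with a median difference of 0.12. The medians per pool were 0.04, -0.04 and 0.01 in control and 0.03, 0.18 and 0.18 at 1 μg, so that the first treated pool lay among the controls. Leaving out 1 pool gave 6 to 25 higher, and cyclic loess gave 9 higher and 4 lower.

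Of 106 probe sets of single cytosolic ribosomal protein genes, 82 had a positive difference, against 55.9% of all probe sets. At an unadjusted p below 0.05 by limma 9 (8.49%) were higher and 0 lower, against 4.93% and 2.5%, and the median was 0.11. The 9 were 28 without treated pool 1 and 3 with cyclic loess. Here too treated pools 2 and 3 (0.15 in both) stood above treated pool 1 (0.03) and the controls (-0.00, 0.02 and -0.01). Type 2 vomeronasal receptors had a median of 0.41 over 18 several-gene probe sets, with 0 past 2-fold, and of -0.02 over 117 probe sets of single genes.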
